A study of Mus musculus with 4 samples.

Results

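The cells described here came from digested mouse bone and carried transcripts of the matrix genes Cilp2 and Chad and of Ecrg4. They were selected by their own counts: a kept barcode belonged if it held at least 1 UMI (unique molecular identifier, 1 counted RNA molecule) of at least 3 of the 6 genes Cytl1, Npy, Meltf, Cilp2, Chad and Ecrg4. Barcodes with at least 5 Col2a1 UMIs together with at least 1 Col9a1 UMI were left out, and so were those with at least 10 Prg4 UMIs. In all, 586 of 15670 kept cells were chosen, 453 of 10063 in the young mouse (4.50%, exact 95% interval 4.10 to 4.93) and 133 of 5607 in the old (2.37%, 1.99 to 2.80). The intervals cover counting error only, and with 1 mouse per age the difference between the mice has no replicate check. They are called Cilp2 Chad Ecrg4 cells below, since these 3 genes carried the selection.

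Fibrocartilage and enthesis cells sit where tendon or ligament meets bone. Their matrix mixes the type I collagen of tendon with aggrecan and other components of cartilage, and textbook fibrochondrocytes express both the tendon factor Scx and the cartilage factor Sox9. Comp and Chad are cartilage and tendon matrix proteins that bind collagen, Cilp2 is related to cartilage intermediate layer protein, Ecrg4 encodes a secreted augurin precursor and Cytl1 a secreted protein of chondrocytes. Npy encodes a neuropeptide, and Meltf a melanotransferrin found in cartilage.

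The study prepared a single-cell suspension from the femurs and tibias of 1 young mouse of 6 months and 1 old mouse of 24 months. Both carried the INK-ATTAC transgene, in which a fragment of the p16 promoter drives an inducible caspase 8, and neither received an agent that triggers it. Sex was not given in the labels. Marrow and bone were digested enzymatically, red cells were lysed, lineage-positive cells were depleted with magnetic beads, and live CD45-negative cells were sorted before 10x Genomics 3′ sequencing of RNA together with a CD24 antibody tag. The sort removes CD45-positive blood cells. The young library held 82675434 RNA UMIs and the old library 68580402, with kept-cell medians of 6385 and 9711 UMIs. Cilp2 Chad Ecrg4 cells had medians of 7152 UMIs, 2500 genes and 2.85% mitochondrial UMIs in the young library and of 10994, 3285 and 2.52% in the old one. Scrublet marked 20 young and 2 old cells of the set as doublets, and 25 barcode sequences occurred in both libraries, 2 of them among the young cells.

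Ecrg4 and Chad were the most widely detected of the 6 genes. In the young mouse 97.6% of the selected cells held an Ecrg4 UMI, 95.6% a Chad UMI and 87.4% a Cilp2 UMI. In the old mouse the shares were 99.2%, 82.7% and 78.2%. Cytl1, Npy and Meltf were found in few of the cells. Cytl1 was detected in 13.7% of young (10.7 to 17.2) and 21.8% of old cells (15.1 to 29.8), Npy in 13.5% and 20.3%, and Meltf in 7.06% and 18.0%. A cell with none of these 3 had to hold all of Cilp2, Chad and Ecrg4, which was so for 316 young (69.8%) and 73 old cells (54.9%). These values chose the cells and are therefore a description. Cytl1 and Npy, which stand in the working marker list of this population, were present in a minority of it.

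Background RNA was read from cells that should lack these genes. Among erythroid cells with at least 3 UMIs of Alas2, a gene of haem synthesis, Ecrg4 was detected in 23.0% of young and 8.33% of old cells, Chad in 4.05% and 3.57%, and Cilp2 in 0% and 0.595%. Their median depths of 18737 and 16548.5 UMIs exceeded those of the selected cells. A single Ecrg4 UMI is thus weak evidence in the young library, whereas Cilp2 and Chad were rare in the reference cells. Among the kept cells of none of the marker groups, Ecrg4 was detected in 33.8% and 36.1%, Chad in 7.77% and 3.49% and Cilp2 in 3.85% and 2.56%.

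**Figure D1:**
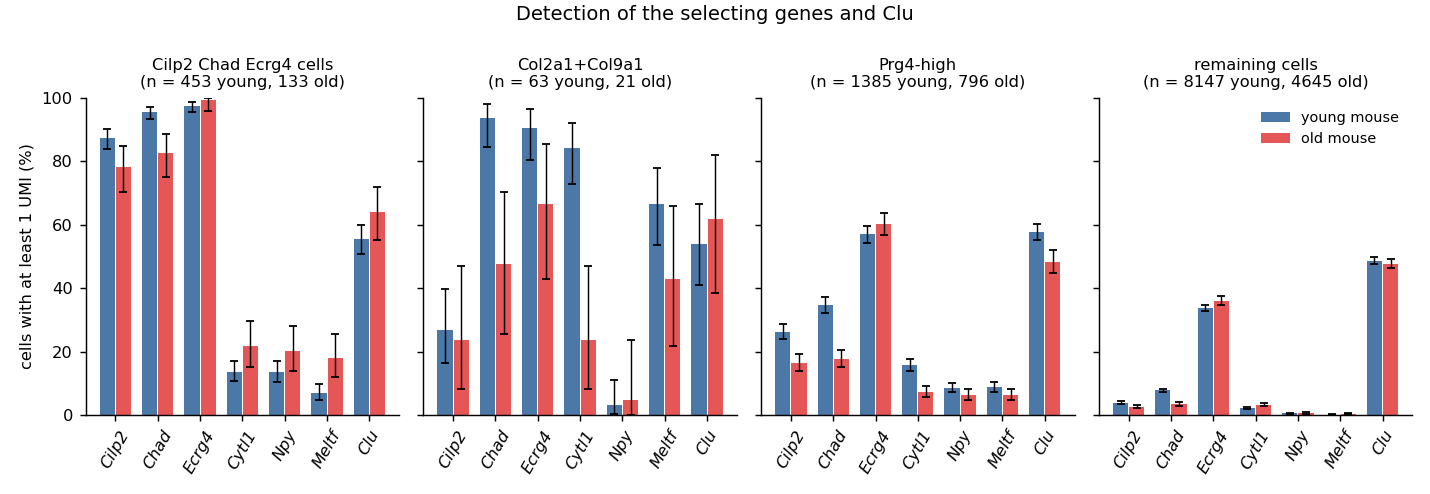
Bars give the percentage of cells with at least 1 UMI of each selecting gene and of Clu in 4 groups of cells, young mouse in blue and old mouse in red, with exact 95% intervals. Cilp2, Chad and Ecrg4 stood between 78.2% and 99.2% in Cilp2 Chad Ecrg4 cells, whereas Cytl1, Npy and Meltf were at or below 21.8% there. In the Col2a1 and Col9a1 cells Chad was detected in 93.7% of young and 47.6% of old cells, and Ecrg4 in 90.5% and 66.7%.

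The selection had a hard edge. Exactly 3 of the 6 genes were found in 387 young and 108 old cells of the set, 4 genes in 65 and 23, and 5 genes in 1 and 2. Just outside stood 675 young and 288 old cells with exactly 2 of the genes. The Prg4 limit ran through a continuous range, with 67 young and 24 old selected cells at 5 to 9 Prg4 UMIs and 50 and 9 cells left out at 10 to 14. After thinning every cell to 2000 UMIs, 3.63% of young and 1.29% of old cells passed the rule, against 4.69% and 2.17% of the same cells before thinning. The young share stayed above the old one at this equal depth.

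Clu was the only gene of the working marker list that the selection did not use. It encodes clusterin, a secreted chaperone. Clu was detected in 55.4% of young and 63.9% of old cells, at summed levels of 1398 and 1629 CPM (the UMIs of the gene scaled to 1000000 UMIs of the summed cells). Prg4-high cells had 2130 and 1237 CPM, cells with Col2a1 and Col9a1 had 1204 and 1033 CPM, and the remaining kept cells had 377 and 313 CPM. Clu was also detected in 48.7% and 47.8% of the remaining cells and in 25.7% and 8.93% of the Alas2 cells. The Clu level was thus above that of the remaining cells in both mice, but it overlapped with the range of the cartilage and joint lining groups. Chad and Ecrg4 were not particular to the selected cells either. Chad was at 2080 and 1518.5 CPM there and at 6585 and 2460 CPM in cells with Col2a1 and Col9a1. Ecrg4 was at 2821 and 4138 CPM, against 5620 and 2829 CPM in those cells and 3873 and 1682 CPM in Prg4-high cells. Cilp2 was at 486 and 447 CPM, against 167 and 153 CPM and 189 and 78.4 CPM.

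Col1a1 and the matrix genes Comp, Fmod and Thbs4 were detected in most of the selected cells. Col1a1, which encodes the main chain of type I collagen, was detected in 95.1% of young and 95.5% of old cells, with a median of 63.7 and 73.7 UMIs per 10000 UMIs of the cell. Comp was detected in 97.8% and 91.7% of cells at medians of 37.7 and 37.5, and Fmod, a collagen-binding proteoglycan, in 83.9% and 84.2% at 14.8 and 15.9. Thbs4, a thrombospondin of tendon, was found in 83.9% and 75.2% of cells at 12.8 and 7.10. In the Alas2 cells Col1a1 was detected in 60.8% and 66.1%, Comp in 23.0% and 26.2%, Fmod in 14.9% and 7.14% and Thbs4 in 10.8% and 2.98%, so a Col1a1 UMI alone says little about a cell. Cartilage and tendon regulators were found in smaller shares. Sox9 was detected in 45.5% and 48.9% of cells, Acan, the gene of aggrecan, in 33.8% and 40.6%, Scx in 25.8% and 41.4%, and the tendon gene Tnmd in 33.3% and 41.4%. Sox9 and Tnmd were detected in the same cell in 56 of 453 young (12.4%) and 24 of 133 old cells (18.0%). Whether this overlap differs from that of genes detected independently of each other was not tested. The counts alone therefore do not show that Sox9 and Tnmd go together in these cells. Col2a1 was detected in 8.17% and 12.0% of cells. Sox9, Acan, Scx and Tnmd were thus each detected in fewer than 50% of the cells. In the Alas2 cells these 4 genes stood between 0% and 5.41%, and Col2a1 at 1.35% and 2.98%.

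**Figure D2:**
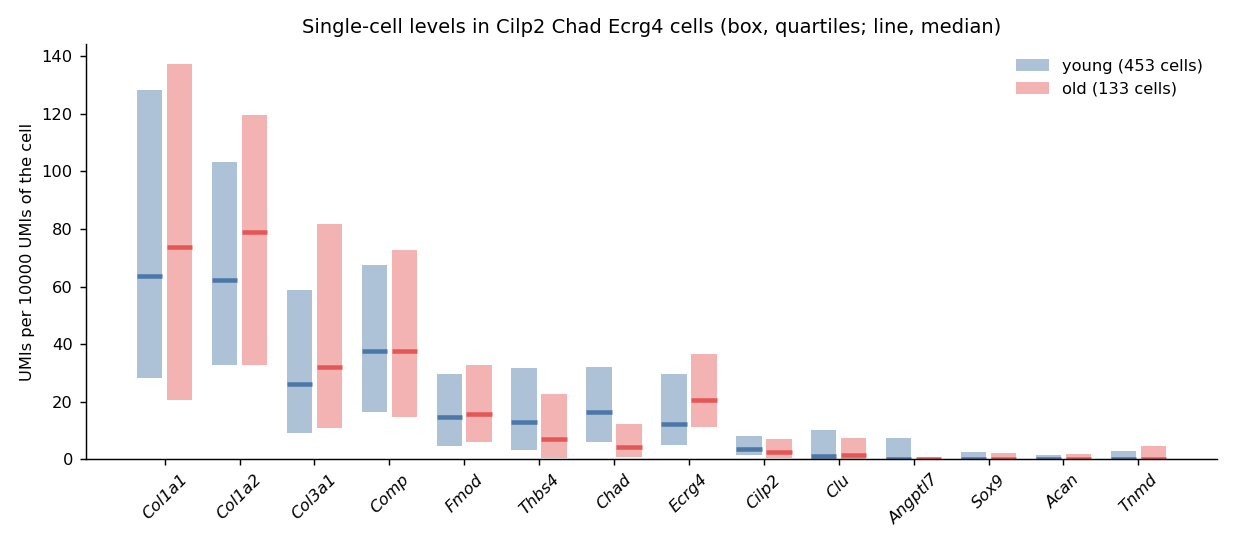
Boxes span the quartiles and lines mark the median of single-cell levels, in UMIs per 10000 UMIs of the cell, for 14 genes in 453 young (blue) and 133 old (red) Cilp2 Chad Ecrg4 cells. Col1a1, Col1a2, Col3a1 and Comp had the highest medians, and the medians of Sox9, Acan and Tnmd were 0 in both mice.

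The cells with Cytl1, Npy or Meltf differed from those without in their balance of cartilage and tendon genes. Those with Cytl1, Npy or Meltf numbered 137 young and 60 old cells, and those without 316 and 73. Median depths were 6281 and 7521 UMIs with them and 7647 and 11597 UMIs without. Sox9 stood at 335 CPM with and 123 CPM without these genes in the young mouse, and at 307 and 121 CPM in the old mouse. Acan stood at 452 and 125 CPM in the young and at 350.5 and 146 CPM in the old mouse. Hapln1, a link protein of the aggrecan network, stood at 326 and 57.5 CPM in the young and at 182 and 32.1 CPM in the old mouse. Tnmd ran the other way, at 80.6 CPM with and 308 CPM without in the young mouse and at 133 and 411 CPM in the old. Single cells weighed on the old sums. Among the old cells with Cytl1, Npy or Meltf, 1 cell each held 45.9% of the Tnmd, 30.7% of the Hapln1 and 29.2% of the Sox9 UMIs. Among those without, 1 cell held 28.2% of the Sox9 UMIs. Col12a1, a collagen of tendon and ligament, stood at 587 and 1347 CPM in the young and at 577 and 1306 CPM in the old mouse. Scx followed Tnmd in the young mouse (32.6 and 81.1 CPM). In the old mouse its sums were 91.7 and 84.9 CPM, but 1 cell held 33.3% of the UMIs behind the first value. By detection, Scx was found in 25% of old cells with and 54.8% of old cells without Cytl1, Npy or Meltf. Since Cytl1 and Meltf were used to divide the cells and vary with other cartilage genes, these values are a description.

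One old cell weighed on several sums. It held 42505 UMIs, 2.79% of the UMIs of all old Cilp2 Chad Ecrg4 cells, and was not marked as a doublet. It carried 1196 Col2a1 UMIs, which were 85.2% of the old Col2a1 sum, as well as 620 Chad and 1293 Ecrg4 UMIs, and no Col9a1, Prg4 or Tnmd UMI. With it the old Col2a1 level was 923 CPM against 143 CPM in the young mouse. Without it the old level was 140.6 CPM.

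The nearest neighbours of the selected cells were found in the 30 principal components of the most variable genes with the selecting genes left out. Among the 30 nearest cells of a Cilp2 Chad Ecrg4 cell, 38.5% (young) and 27.6% (old) were of the same kind, whereas such cells made up 4.50% and 2.37% of each library. The remaining kept cells made up the largest share of the neighbours, 42.1% and 48.2%. A further 16.2% and 22.4% were Prg4-high cells and 2.56% and 0.501% were Col2a1 and Col9a1 cells. At least 15 neighbours were of the same kind for 163 of 453 young and 21 of 133 old cells, and none were for 25 and 4. No test was made on these shares.

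The other groups of cells served as comparators, and no cell was in more than 1 of them. Cartilage cells with Col2a1 and Col9a1 numbered 63 young and 21 old, Prg4-high cells 1385 and 796, cells with both Tnmd and Kera, which is a corneal and tendon proteoglycan, 15 and 12, and the remaining kept cells 8147 and 4645. A further 10 young and 4 old cells held both Tnmd and Kera but met the selection and were counted there. UMIs were summed per group and mouse, and the 10 sums were compared with edgeR's quasi-likelihood test with the mouse as a block and Benjamini-Hochberg adjustment over 12437 genes. The p-values measure the spread between these sums from 2 mice. The 11 genes that define the groups are given without a test. The cells were chosen by their counts, so genes that vary along with the selecting genes had to differ, and the calls describe these cells only. Fold changes below are log2 values with their standard error, positive where Cilp2 Chad Ecrg4 cells were higher. The counts of calls include 8, 3, 1 and 11 of the 11 defining genes in the order of the comparisons below. The median over all genes tested was 0.22 against Tnmd and Kera cells and lay between -0.03 and 0.05 in the other comparisons.

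Against the cartilage cells, the selected cells had far less of the hyaline cartilage matrix and more of the tendon, proteoglycan and protease genes. In all, 697 genes were higher (5.6% of those tested) and 599 lower (4.82%). DESeq2 on the same sums called 755 higher and 993 lower. Of 17 cartilage matrix genes tested, 15 were lower and 1 higher, with a median of -3.31. Acan was at 216 and 221 CPM in young and old selected cells and at 1573 and 883 CPM in the cartilage cells (-2.75 ± 0.46, adjusted p = 0.0053). Snorc, a chondrocyte membrane proteoglycan, was at 405 and 128 CPM against 7416 and 2543 CPM (-4.52 ± 0.49, adjusted p = 0.00091). Comp came closest to parity, at 4399.5 and 5576 CPM against 5974 and 7919 CPM (-0.71 ± 0.19, adjusted p = 0.042, and 0.051 without doublets). Matn4, which encodes the broadly expressed matrilin of connective tissue, was the exception in the list, at 284 and 394 CPM against 75.1 and 25.8 CPM (2.42 ± 0.35, adjusted p = 0.0025). Among 15 chondrocyte regulators tested, 6 were lower and 1 higher. Sox9 was at 182 and 189 CPM against 764 and 420 CPM (-1.87 ± 0.26), Sox5 and Fgfr3 were lower by -2.31 ± 0.28 and -2.67 ± 0.22, and Pthlh, a signal of the growth plate, was higher (2.82 ± 0.68, adjusted p = 0.029).

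Tendon and enthesis genes ran opposite to the cartilage genes in this comparison. Of 13 tested, 8 were higher and none lower at an adjusted p under 0.05, with a median of 1.21. Scx was at 67.7 and 87.4 CPM against 2.35 and 12.9 CPM in the cartilage cells (3.30 ± 0.39, adjusted p = 0.00093). Thbs2 was at 596 and 795 CPM against 34.04 and 25.8 CPM (4.23 ± 0.40), and Thbs4 at 2169 and 1809 CPM against 359 and 109 CPM (2.85 ± 0.46). Ptn, a growth factor bound to heparan sulfate, was at 678 and 367 CPM against 12.9 and 5.53 CPM (5.49 ± 0.33, adjusted p = 3.5e-05). Small leucine-rich proteoglycans, which shape collagen fibrils, were higher for 5 of 11 and lower for none. Aspn was at 2952 and 3615 CPM against 55.2 and 131 CPM (4.99 ± 0.36), and Ogn at 1862 and 1827 CPM against 185 and 109 CPM (3.42 ± 0.23). For each of these genes both selected sums lay above both cartilage sums.

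Proteases and genes of the IGF axis had members that were higher and none that were lower than in the cartilage cells. Of 18 proteases and inhibitors 9 were higher and none lower, among them the gelatinase gene Mmp2 (2.07 ± 0.24) and the stromelysin gene Mmp3 (3.87 ± 0.79). Of 9 genes of hypertrophic cartilage 7 were lower and 1 higher, the latter being the collagenase gene Mmp13 at 610 and 1071 CPM against 59.9 and 11.1 CPM (4.07 ± 0.67, adjusted p = 0.0051). Without the Bglap-rich cartilage cells described below, none of the 9 was lower and 1 was higher. Of 9 genes of the IGF axis 7 were higher, among them Igfbp5 (3.48 ± 0.51) and Igfbp6 (2.75 ± 0.21). Tgfb3, a ligand of the TGF-beta family, was at 192 and 142 CPM against 30.5 and 40.6 CPM (2.04 ± 0.24), and of 28 BMP, TGF-beta and WNT modulators 10 were higher and 4 lower. The lower ones were the WNT antagonist Wif1 (-1.46 ± 0.31), the ligand Bmp7 (-4.58 ± 0.84), Tgfb1 and Frzb.

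The genes of largest change against the cartilage cells included several that the latter hardly held. Nppc, which encodes C-type natriuretic peptide, was at 77.3 and 90.7 CPM and had no UMI in either cartilage sum, so that it was at least 21.9-fold higher in the young and 16.4-fold higher in the old mouse. Angptl7 had 2 UMIs in the cartilage cells, and its pooled ratio was 361 (counting interval 99.8 to 2980). Mfap4, a microfibril protein, had 1 UMI there (ratio 322, 57.7 to 12725). Sfrp2, a secreted WNT antagonist, was at 594 and 431 CPM against 4.70 and 0 CPM (7.38 ± 1.09, adjusted p = 0.0028), and Fgl2 at 143 and 118 CPM against 3.52 and 1.84 CPM (5.27 ± 0.38). Ctla2a and Slpi were also named by size, but 73.5% of the old Ctla2a UMIs and 59.0% of the young Slpi UMIs sat in 1 cell each. On the lower side stood Col11a2, a cartilage collagen (-5.38 ± 0.74), Car12 (-5.79 ± 1.05), Slc13a5 (-5.85 ± 0.68) and Msmp (-5.66 ± 1.04), for which a single cell held 98.7% of the old cartilage UMIs.

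Osteoblast RNA moved with the cartilage comparator. Of 10 osteoblast markers tested, 9 were lower in the selected cells. Bglap, the gene of osteocalcin, was at 318 and 256 CPM against 8362 and 15053 CPM in the cartilage cells, of which 22 of 63 young and 12 of 21 old held at least 10 Bglap UMIs. Col1a1 (-1.70 ± 0.35, adjusted p = 0.014), Col1a2 (-1.38 ± 0.32, adjusted p = 0.025), Car3 (-7.15 ± 0.38), Col22a1 (-6.13 ± 0.67) and Ifitm5 (-5.93 ± 0.47) were lower as well. With the Bglap-rich cells left out of the comparator, Col1a1 stood at 1.57 and Col1a2 at 1.36 (adjusted p = 0.25 and 0.097), Col22a1 at 0.21 and Ifitm5 at 1.13, while Car3 had no UMI left in the comparator. In that setting 468 genes passed the test, 2 osteoblast markers were higher and none lower, and the calls of Pthlh (2.07), Lum (1.04), Car12 (-4.90) and Slc13a5 (-4.09) were lost. The 29 young and 14 old selected cells with at least 10 Bglap UMIs stayed in. Osteoblast RNA was thus taken from 1 side only, and the turn of its markers describes that step. The cartilage matrix genes still had 15 lower and 1 higher, with a median of -2.66, and the tendon genes 5 higher and 0 lower. Fmod, at 1924 and 2588 CPM against 761 and 1212 CPM, lost its difference (0.97 ± 0.21 with and -0.00044 without the Bglap-rich cells).

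Against the Prg4-high cells, the selected cells had less of the joint lining and fibroblast genes and more of the tendon genes. Prg4 encodes lubricin, the lubricant of synovium and superficial cartilage. In all, 442 genes were higher (3.55%) and 471 lower (3.79%). Of 12 joint lining genes tested 8 were lower and none higher, with a median of -2.24. Htra4, a serine protease, was at 8.79 and 9.86 CPM against 168 and 209 CPM (-4.41 ± 0.27, adjusted p = 6.3e-05). Clic5, a chloride channel protein of lining cells, was at 1.33 and 0.657 CPM against 79.9 and 36.4 CPM (-5.80 ± 0.48). The transcription factor Creb5 (-2.65 ± 0.33) and Tppp3 (-2.34 ± 0.20) were lower as well. Of 10 fibroblast markers 9 were lower, with a median of -2.69. Clec3b was at 200 and 57.2 CPM against 1004 and 900 CPM (-3.10 ± 0.58, adjusted p = 0.011), and Pi16 at 37.3 and 3.29 CPM against 146 and 235 CPM (-3.13 ± 0.56). Prg4 itself, a selecting gene, was at 199 and 172 CPM against 11920 and 9912 CPM.

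Tendon and enthesis genes were higher than in the Prg4-high cells for 7 of 13 and lower for 1, with a median of 1.56. Fmod was at 1924 and 2588 CPM against 557 and 577 CPM (1.95 ± 0.21, adjusted p = 0.00066). Scx was at 67.7 and 87.4 CPM against 24.7 and 25.7 CPM (1.56 ± 0.18, adjusted p = 0.00096), and Mkx, a homeobox factor of tendon, at 30.6 and 43.4 CPM against 11.5 and 6.55 CPM (1.96 ± 0.32). Col12a1 was at 1136 and 1040 CPM against 151 and 231 CPM (2.45 ± 0.46, adjusted p = 0.01). Thbs4 missed the threshold (1.54 ± 0.42, adjusted p = 0.06), and Comp did not pass (0.23 ± 0.19, adjusted p = 0.62). Ptgs2, the inducible cyclooxygenase, was the gene of the list that was lower (-2.65 ± 0.18). Of 11 proteoglycans 3 were higher, among them Ogn (1.71 ± 0.20) and Omd (1.79 ± 0.28), and 1, Podn, was lower. Of 14 fibrous collagens 2 were higher, among them Col8a2 (2.30 ± 0.23), and 1, Col5a3 (-1.82 ± 0.18), was lower.

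Calls of cartilage genes against Prg4-high cells depended on which selected cells were counted. Of 17 cartilage matrix genes 8 were higher and 1, Cilp, was lower (-1.17 ± 0.17). Matn4 was at 284 and 394 CPM against 29.3 and 24.6 CPM (3.62 ± 0.30, adjusted p = 0.00026). Col9a2 was at 67.1 and 17.7 CPM against 6.72 and 6.80 CPM (2.39 ± 0.45, adjusted p = 0.01). Without the cells that held Cytl1, Npy or Meltf, 4 of the 17 were higher and 2 lower, and Col9a2 stood at 0.32 with an adjusted p of 0.84. Values also turned for Hapln1 (0.90 ± 0.22 with them and -0.41 without) and Ihh, the hypertrophic signal (3.16 ± 0.42 and -2.08). The cells were left out by selecting genes that vary with other cartilage genes, and from the selected side only. Prg4-high cells kept theirs, with Cytl1 at 1059 and 164 CPM. These changes therefore describe that step. Leaving out the 1 deep old cell gave 6 higher and 1 lower, with Col9a2 at 2.07 (adjusted p = 0.054) and Hapln1 at 0.79 (adjusted p = 0.062). Sox9 was at 182 and 189 CPM against 192 and 144 CPM (0.13 ± 0.25, adjusted p = 0.87), and Sox5 was lower (-1.53 ± 0.25, adjusted p = 0.0049).

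Secreted factors distinguished the selected cells from Prg4-high cells in both directions. Igfbp2 was at 112 and 40.1 CPM against 3.03 and 1.64 CPM (4.97 ± 0.38, adjusted p = 0.00027), and the growth factor Igf2 at 69.5 and 144 CPM against 19.9 and 20.7 CPM (2.27 ± 0.31). The BMP antagonist Nog (1.92 ± 0.29), Wnt5a (1.58 ± 0.22) and Sfrp2 (2.53 ± 0.62) were higher, and Sfrp4 was lower (-2.07 ± 0.47). The calls of Sfrp2 and Sfrp4 were lost with DESeq2 (adjusted p = 0.060 and 0.061) and without the replicate block (adjusted p = 0.22 and 0.097). With at least 4 of the 6 genes Sfrp2 (adjusted p = 0.088), Sfrp4 (adjusted p = 0.14) and Wnt5a (0.90, adjusted p = 0.21) missed the threshold. Complement C3 was at 86.6 and 53.9 CPM against 506 and 836 CPM (-3.24 ± 0.30), and C4b was lower by -1.81 ± 0.20. The inflammatory cytokine Il6 was at 9.06 and 13.8 CPM against 89.7 and 149 CPM (-3.44 ± 0.27, adjusted p = 0.00048). Of 10 complement genes tested 1 was higher and 3 lower. Of 28 BMP, TGF-beta and WNT modulators 5 were higher and 6 lower, the latter being Fstl1, Bmp2, Sfrp1, Sfrp4, Frzb and Wnt11, and of 9 genes of the IGF axis 2 were higher and none lower.

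The genes of largest increase over Prg4-high cells were Nppc (6.25 ± 0.26), the ephrin receptor Epha3 (4.06 ± 0.31), Matn4, Ctla2a (3.62 ± 0.35), the long noncoding RNA Snhg11 (3.49 ± 0.42), Megf6 (3.06 ± 0.23), Slpi (2.95 ± 0.57) and the imprinted RNA H19 (2.94 ± 0.38). Nppc was detected in 11.3% of young and 15.04% of old cells, and Epha3 in 16.3% and 21.1%. Ctla2a was detected in 3.53% and 3.76%, and 1 cell held 73.5% of its old UMIs. For Slpi, 59.0% of the young and 37.0% of the old UMIs sat in 1 cell each. With at least 4 of the 6 genes Slpi (0.91, adjusted p = 0.67) and H19 (1.31, adjusted p = 0.40) lost their calls, and Slpi did so without the replicate block (adjusted p = 0.17). The genes of largest decrease were Msmp (-6.82 ± 0.97, with 30.98% of the young and 72.1% of the old Prg4-high UMIs in 1 cell each), Scg3, Htra4, Pla1a (-4.24 ± 0.32), Calcrl (-3.93 ± 0.33), Procr (-3.77 ± 0.34), Pcsk6 (-3.55 ± 0.53) and Hmcn2 (-3.51 ± 0.45). Scg3 had 3 UMIs in the selected cells against 58.4 and 55.2 CPM in Prg4-high cells, a pooled ratio of 100 with a counting interval of 34.1 to 485. Calcrl is a receptor for adrenomedullin and CGRP, and Procr is the protein C receptor.

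Against the Tnmd and Kera cells few differences could be detected, with 15 young and 12 old cells in the comparator. In all, 9 genes were higher (0.0724%) and 3 lower (0.0241%), while 1106 had an unadjusted p under 0.05 and DESeq2 called 109 higher and 90 lower. None of the 13 tendon and enthesis genes passed, and their median was 0.22, as over all genes. None of the 17 cartilage matrix genes (median 2.42) or the 15 chondrocyte regulators (median 1.75) passed either. With so few comparator cells, the lack of a call does not show likeness to them. Thbs4 was at 2169 and 1809 CPM against 3156 and 5284 CPM (-1.005 ± 0.43, adjusted p = 0.53), Fmod at 1924 and 2588 CPM against 3735 and 3128 CPM (-0.48 ± 0.21, adjusted p = 0.53) and Scx at 67.7 and 87.4 CPM against 160 and 142 CPM (-0.82 ± 0.31, adjusted p = 0.47). Higher were Spp1, the gene of osteopontin, at 2181 and 6065 CPM against 69.9 and 43.4 CPM (6.38 ± 0.60, adjusted p = 0.0074, with 4035 CPM in the old mouse without the deep cell), Clu (4.15 ± 0.50, adjusted p = 0.026), the phosphatase Alpl (3.11 ± 0.42, adjusted p = 0.04) and the osteoblast factor Runx2 at 166 and 179 CPM against 30.0 and 37.2 CPM (2.45 ± 0.29). Enpp2, the gene of autotaxin, had 2 UMIs in the comparator (ratio 29.4, interval 8.11 to 243). The stress-response genes Errfi1 (2.19 ± 0.31), Gadd45g (2.04 ± 0.26) and Ppp1r15a (1.74 ± 0.24) were also higher, and so was the protease inhibitor Cst3 (1.27 ± 0.16), which was named after its value was seen. The proteoglycan Vcan was lower (-2.26 ± 0.31), as was the transcription factor Ebf1 (-1.19 ± 0.17). The remaining call was Kera, which defined the comparator. With at least 4 of the 6 genes required, 9 of the 14 genes named in this comparison lost their call, among them Clu (0.37, adjusted p = 0.90), Runx2 (1.40, adjusted p = 0.11), Enpp2 (1.67, adjusted p = 0.17), Gadd45g (0.98, adjusted p = 0.45) and Vcan (-1.10, adjusted p = 0.29). In the other direction, Thbs4 passed as lower with no filter on low counts (-1.03, adjusted p = 3.1e-06), and Fmod at 2000 UMIs (-0.89, adjusted p = 0.039).

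Against the remaining kept cells, the selected cells were higher in 1576 genes (12.7%) and lower in 1723 (13.9%). Cartilage matrix genes were higher for 15 of 17 (median 3.44), chondrocyte regulators for 12 of 15 (median 1.07), tendon genes for 11 of 13 with 2 lower (median 1.82) and small leucine-rich proteoglycans for 10 of 11 (median 1.61). Comp was at 4399.5 and 5576 CPM against 1005 and 760 CPM (2.56 ± 0.20, adjusted p = 6.9e-05). Sox9 was at 182 and 189 CPM against 41.1 and 33.0 CPM (2.42 ± 0.26, adjusted p = 0.00028) and Scx at 67.7 and 87.4 CPM against 7.81 and 8.59 CPM (3.30 ± 0.18, adjusted p = 2.1e-05). Both factors were thus above the level of the remaining cells in each mouse. These are sums over cells, and cells with both factors were not counted. Without the cells that held Cytl1, Npy or Meltf, 12 of the 17 cartilage genes were higher and 1 was lower, and 6 of the 14 regulators tested were higher. This step again took cells from the selected side only.

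The leading genes over the remaining cells were Snorc (6.17 ± 0.54), Matn4 (4.92 ± 0.31), Nppc (4.87 ± 0.20), Angptl7, Dio2, Mfap4 (3.94 ± 0.35), Thbs4 (3.87 ± 0.46) and Hapln1 (3.78 ± 0.24). Angptl7, a secreted angiopoietin-like protein, was at 624.5 and 254 CPM against 24.0 and 12.1 CPM (4.64 ± 0.47). Dio2, the deiodinase that activates thyroid hormone, was at 529 and 641 CPM against 41.7 and 29.3 CPM (4.21 ± 0.54) and was detected in 53.9% of young and 54.1% of old cells. Snorc in contrast was detected in 9.71% and 7.52% of cells, and 1 cell held 55.9% of its old UMIs. Lowest against the remaining cells were the globin genes Hba-a1 (-6.32 ± 0.45), Hbb-bt (-6.04 ± 0.38), Hbb-bs (-5.67 ± 0.43) and Hba-a2 (-5.11 ± 0.34), the neutrophil gene Camp (-5.79 ± 0.29), the immunoglobulin genes Igkc (-4.83 ± 0.94) and Ighm (-4.62 ± 0.67), and Car3 (-4.54 ± 0.38).

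RNA of osteoblast, fibroblast and marrow stroma markers was present in the selected cells. Osteoblast markers summed to 3361 CPM (young) and 3688 CPM (old), against 2851 and 2402 CPM in Prg4-high and 4703 and 6664 CPM in remaining cells. At least 10 Bglap UMIs were held by 29 young and 14 old selected cells. Fibroblast markers summed to 4426 and 3051 CPM and marrow stroma markers to 2984 and 2789.9 CPM. Their part in the comparisons was not tested. Against the remaining cells 6 of 10 osteoblast and 5 of 10 fibroblast markers were lower and none higher. Of 10 marrow stroma markers 8 were lower than in the remaining cells and none higher. Cxcl12 was at 1083 and 682 CPM against 8017 and 7457 CPM (-3.12 ± 0.85, adjusted p = 0.024), and Adipoq at 34.9 and 29.6 CPM against 377 and 647 CPM (-3.90 ± 0.46). All 14 blood markers were lower, with a summed level of 618 and 485 CPM against 7927 and 25818 CPM. The endothelial markers Cdh5 and Emcn and the Schwann cell marker Sox10 had no UMI in any selected cell. All 10 proliferation genes were lower, among them Mki67 at 23.2 and 15.8 CPM against 197 and 276 CPM (-3.37 ± 0.46, adjusted p = 0.0012). Genes of dissociation stress were higher for 7 of 11 and lower for 1, with Fos at 3408 and 4842 CPM against 1959 and 1711 CPM (1.24 ± 0.23). The part of enzymatic dissociation in these levels was not tested.

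**Figure D3:**
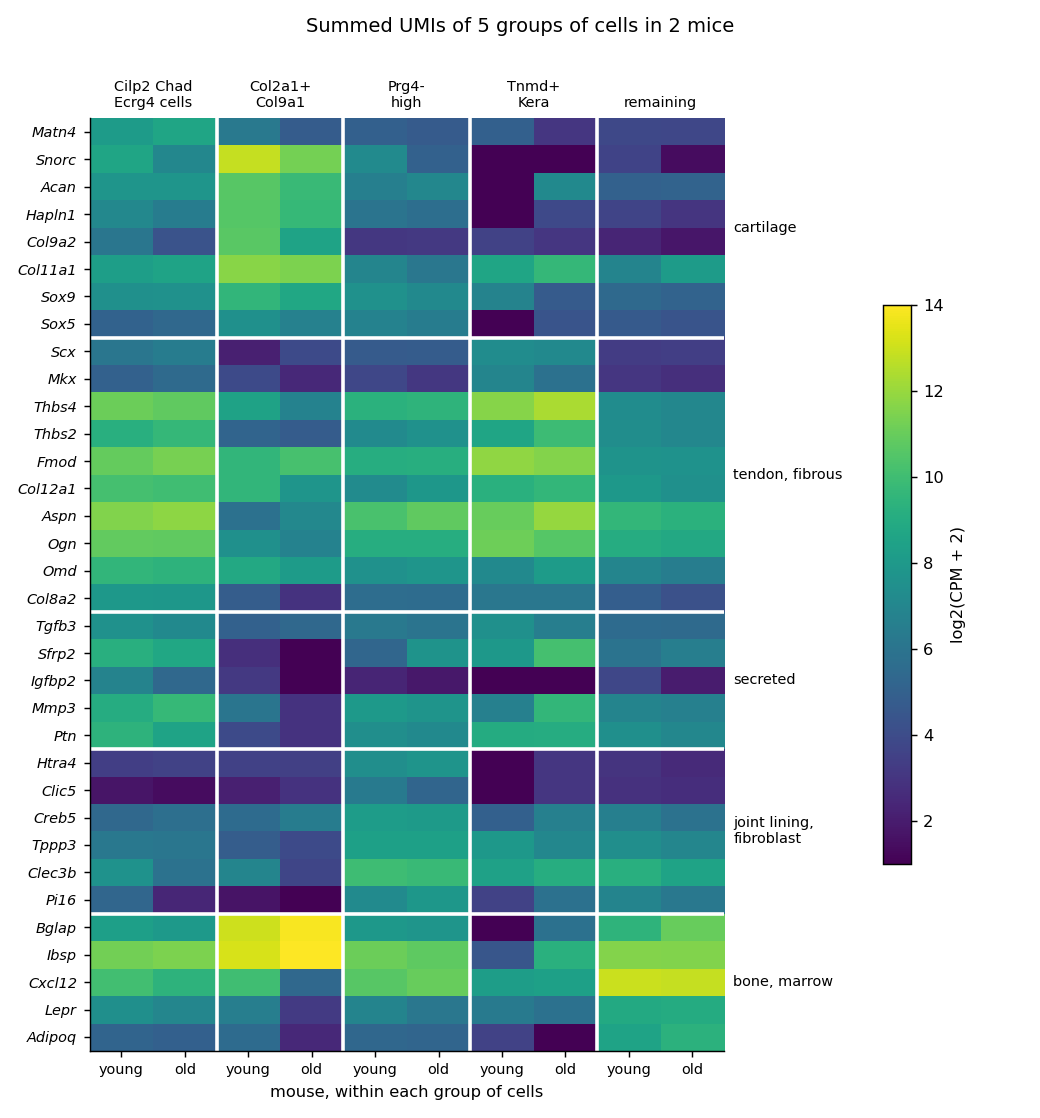
Colour gives log2(CPM + 2) of the summed UMIs of 34 genes in the Cilp2 Chad Ecrg4 cells, the 4 comparator groups and each mouse. Thbs4, Fmod, Aspn and Ogn are high in both the selected and the Tnmd and Kera cells, with old Thbs4 at 1809 against 5284 CPM, and the selected cells have less Acan, Snorc and Bglap than the Col2a1 and Col9a1 cells, and have less Htra4, Clic5 and Clec3b than the Prg4-high cells.

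Arrest and survival genes address the question of senescence that the study posed. Of 17 tested against the remaining cells 2 were higher and 3 lower. Cdkn1c, which encodes the cell cycle inhibitor p57, was at 574 and 571 CPM against 138 and 146 CPM (2.08 ± 0.58, adjusted p = 0.026, and 0.05 with DESeq2). Bcl2, the anti-apoptotic factor, was at 79.7 and 40.7 CPM against 33.4 and 37.998 CPM (0.84 ± 0.24, adjusted p = 0.028, and 0.16 with DESeq2). Cdkn1a, the gene of p21, was at 303 and 304 CPM against 186 and 128 CPM and did not pass the test (1.05 ± 0.55, adjusted p = 0.2), although it passed in the fit of these 2 classes alone (adjusted p = 0.00055) and after thinning (adjusted p = 0.00027). Cdkn2a, whose transcripts encode p16 and p19, gave 6 UMIs in young and 4 in old selected cells, which is too few for a comparison of ages at this depth. Lower were Trp53 (-0.51 ± 0.15), Il6 (-1.91 ± 0.28) and Cd24a (-2.38 ± 0.33). The Trp53 call was lost at 2000 UMIs (-0.063, adjusted p = 0.91), with at least 4 of the 6 genes (-0.36, adjusted p = 0.36) and without the replicate block (adjusted p = 0.058). With at least 4 genes Il6 (adjusted p = 0.052), Cd24a (-1.16, adjusted p = 0.15), Cdkn1c (1.75, adjusted p = 0.11) and Bcl2 (0.93, adjusted p = 0.16) also missed the threshold.

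CD24 was measured by antibody as well as by RNA. The thresholds, set within each library by Otsu's method on the log scale, were 312 and 396 antibody counts. Above them were 60 of 453 young Cilp2 Chad Ecrg4 cells (13.2%, 10.3 to 16.7) and 11 of 133 old cells (8.27%, 4.2 to 14.3), against 15.6% and 13.6% of all kept cells. Cartilage cells with Col2a1 and Col9a1 had 36.5% (24.7 to 49.6) and 33.3% (14.6 to 57.0), and Prg4-high cells 11.2% and 7.04%. The median antibody count of the selected cells was 98 and 105, against 92 and 95 over all kept cells, and 58 young and 12 old of them lay within 1.5-fold of the threshold. Cd24a RNA was detected in 8.61% of young and 12.0% of old selected cells (6.19 to 11.6 and 7.04 to 18.8), against 14.9% and 18.7% of all kept cells, so that the young interval lay below the share of all kept cells and the old one included it. With 2 mice an exact paired permutation test cannot go below p = 0.5, so no test was made. For the antibody at these thresholds, the intervals of the selected cells included the share of all kept cells in both mice, and those of the young and old cells overlapped. With the 90th percentile as threshold, 6.18% of young (4.15 to 8.81) and 3.01% of old selected cells (0.825 to 7.52) lay above it. Both intervals were then below the 10.0% of all kept cells, so this reading depends on the threshold.

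**Figure D4:**
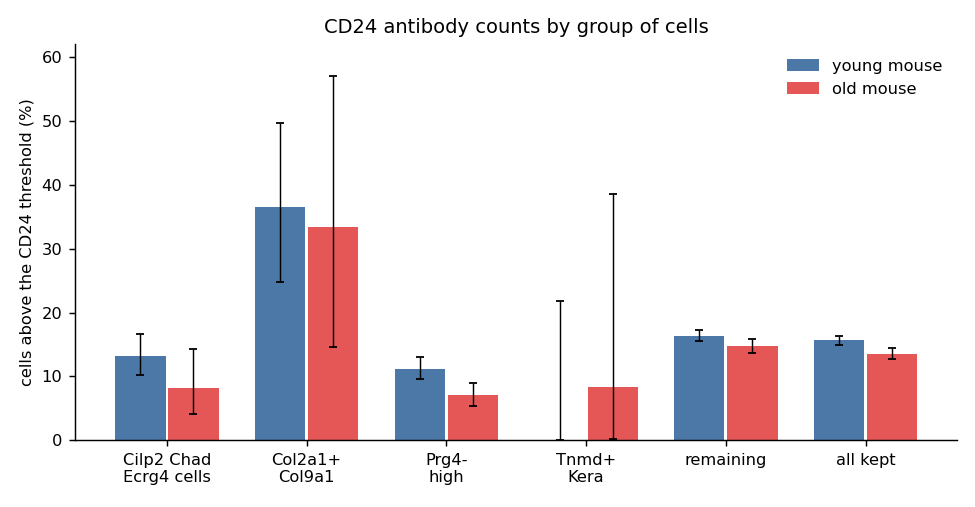
Bars give the percentage of cells above the CD24 antibody threshold of their library in each group, young in blue and old in red, with exact 95% intervals. Cilp2 Chad Ecrg4 cells stood at 13.2% and 8.27%, below the Col2a1 and Col9a1 cells at 36.5% and 33.3%.

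The fibrous matrix of the selected cells stood at similar levels at both ages. Values are sums over the cells of 1 mouse per age, so no test was possible. On the log2 scale, old over young, Col1a1 stood at 0.30 (0.27 to 0.32), Col3a1 at 0.58 (0.54 to 0.61), Comp at 0.34 (0.30 to 0.38), Fmod at 0.43 (0.37 to 0.48) and Thbs4 at -0.26 (-0.33 to -0.20). Sox9 (0.06, -0.15 to 0.26) and Acan (0.03, -0.15 to 0.22) were level within counting error, and so was Cdkn1a (0.00, -0.16 to 0.16). Of the selecting genes Cilp2 stood at -0.12 (-0.25 to 0.01), Chad at -0.45, Ecrg4 at 0.55, Cytl1 at -0.23 (-0.43 to -0.04) and Npy at 0.20 (-0.11 to 0.50). Meltf went from 18.9 to 51.3 CPM (1.44, 0.96 to 1.92), and 1 cell held 28.2% of its old UMIs. With 2 CPM added, Meltf stood at 1.35, and at 0.72 after thinning. Without the deep old cell Chad stood at -0.86 and Ecrg4 at 0.26. None of the tendon, fibrous collagen or proteoglycan genes at 50 CPM or more differed by 2-fold.

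Cartilage matrix genes supplied 5 of the 38 genes that were at least 2-fold lower in the old mouse. Among 3248 genes of at least 50 CPM in 1 mouse, 22 were at least 2-fold higher in the old cells (0.677%) and 38 at least 2-fold lower (1.17%). Of 13 cartilage matrix genes at that level 5 were lower (Snorc, Col9a3, Col9a2, Cnmd and Col11a2) and none higher. The median log2 ratio of the 13 was -0.30 in the selected cells and -0.29 in the remaining cells, with 2 CPM added. On the same scale, when the deep old cell was left out, Col9a2 went from -1.81 to -2.98, Snorc from -1.65 to -2.76, Col9a3 from -2.48 to -4.04 and Col11a2 from -1.63 to -2.32. No young cell was left out in that step. In the young mouse 1 cell each held 21.6% of the Snorc and 17.5% of the Col9a2 UMIs. Among the young cells with Cytl1, Npy or Meltf, 1 cell held 40.8% of the Col9a3 UMIs. Cnmd, the angiogenesis inhibitor chondromodulin, went from 70.3 to 3.29 CPM (-4.42, -6.05 to -3.18), and Col9a2 from 67.1 to 17.7 CPM (-1.92, -2.55 to -1.35). These genes were held by few cells, with Cnmd in 6.402% of young and 2.26% of old cells. Mia, a secreted protein of chondrocytes, went from 147 to 30.9 CPM (-2.25) and Egfl6 from 54.9 to 9.86 CPM (-2.48). The tubulin regulator Stmn1 (-2.90), smooth muscle actin Acta2 (-2.41), the marrow stroma gene Hp (-2.13) and the fibroblast gene Clec3b (-1.80) were also lower. With 2 CPM added to both levels, Stmn1 went from -2.64 to -0.82 and Hp from -2.09 to -1.02 when predicted doublets were left out, and Clec3b from -1.77 to -0.61 after thinning. In the remaining cells, with 2 CPM added, Cnmd stood at -0.70, Col9a2 at -0.54, Mia at -0.81, Egfl6 at -0.85, Stmn1 at -0.52, Hp at -0.54, Clec3b at -0.67 and Acta2 at 0.67. All but Acta2 were thus lower in the old remaining cells too. Levels there were low for Cnmd (1.46 and 0.134 CPM), Egfl6 (2.90 and 0.708 CPM) and Col9a2 (3.01 and 1.44 CPM). The added 2 CPM shrinks such ratios, so their size cannot be set against that in the selected cells.

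Higher in the old cells were genes of several kinds. Of 7 hypertrophic cartilage genes at 50 CPM or more, 2 were at least 2-fold higher and none lower. Col10a1, the collagen of hypertrophic cartilage, went from 11.5 to 133 CPM, but 1 cell held 96.5% of its old UMIs. Spp1 went from 2181 to 6065 CPM (1.47 with 2 CPM added), and stood at 0.89 without the deep cell. Igkc, an immunoglobulin chain, went from 10.7 to 56.5 CPM (2.41, 1.85 to 2.99) while it went from 50.1 to 7058 CPM in the remaining cells, and the part of free RNA in its level was not tested. H19 went from 81.5 to 288 CPM (1.82, 1.61 to 2.04) and was detected in 8.83% of young and 19.5% of old cells. Tnfrsf11b, the gene of the decoy receptor osteoprotegerin, went from 92.2 to 258 CPM (1.49, 1.27 to 1.70), and 1 cell held 23.9% of its old UMIs. Pttg1, the gene of securin, went from 13.1 to 63.1 CPM (2.27), Kcnj15 from 35.2 to 122 CPM (1.79), Chst1 from 16.0 to 51.9 CPM (1.70), the integrin ligand Npnt from 54.9 to 143 CPM (1.38) and Fam180a from 29.8 to 78.2 CPM (1.39). Pttg1 was detected in 45.1% of old and 8.83% of young cells. In the remaining cells the same genes other than Igkc had log2 ratios between -0.25 and 0.77 with 2 CPM added.

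**Figure D5:**
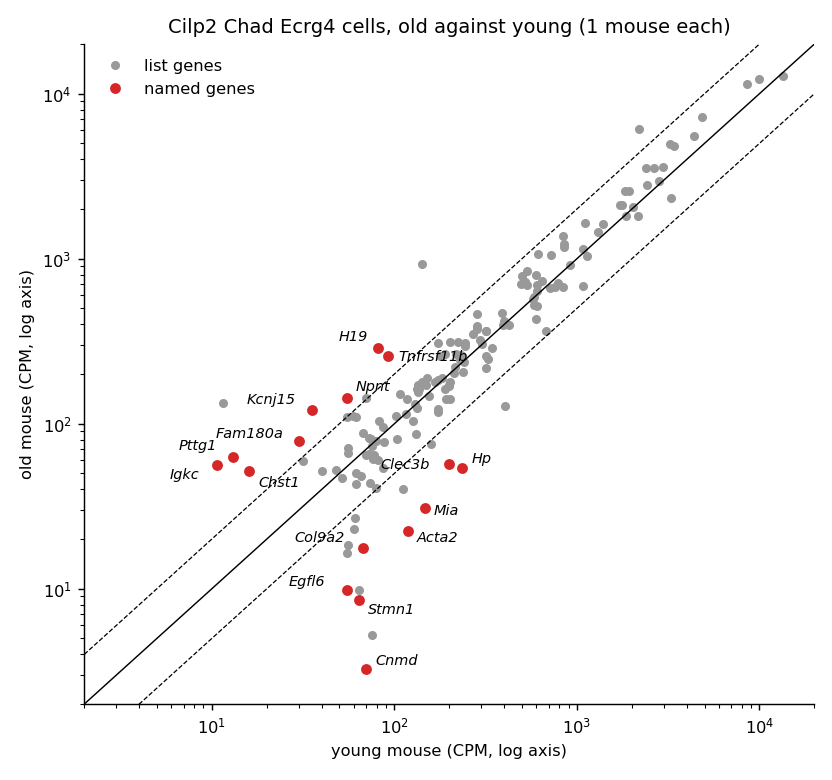
Each point is a gene, by its summed level in young (x axis) and old (y axis) Cilp2 Chad Ecrg4 cells in CPM on log axes, with list genes in grey and the 16 named genes in red. The solid line marks equality and the dashed lines 2-fold, and the list genes of high level lie close to equality.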

How the data were processed

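UMI counts per gene and per antibody were deposited by the authors as 1 filtered matrix per mouse, made with Cell Ranger (6.1.1 in the file headers) on mm10 as the submitters' notes give it. They were not normalized. Here, barcodes with fewer than 200 genes or over 20% mitochondrial UMIs were left out. The members and gene lists were chosen with earlier results of these data known. Doublets were marked with Scrublet in scanpy 1.11.5 and kept. UMIs were summed over 5 exclusive classes in each mouse, which gave 10 sums. These were fitted with edgeR 4.0.16 (TMM, filterByExpr, quasi-likelihood F test, two-sided, 4 residual degrees of freedom), with Benjamini-Hochberg adjustment and a threshold of 0.05. The mouse was a block because both sums of a pair come from 1 animal. The code was tested on simulated data. DESeq2 1.42.0, RLE factors and the other settings named in the closing section were alternatives.

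Genes were named as the 8 of largest log2 change in each direction that passed, had at least 50 CPM in both mice in the higher class and agreed in sign between mice, leaving out the defining genes and symbols of the Gm and Rik kind. For ages they were the 8 of largest ratio at 50 CPM or more whose counting interval lay beyond 2-fold and of whose UMIs at most 25% lay in 1 cell. Examples from the lists were taken by size and level, and some were picked after their values were seen. Intervals are exact (Clopper-Pearson for shares, Poisson for sums). Where a class had 0 UMIs, a floor of 3 counts per library gave the bound. Ratios of ages are of CPM, and their ranking added 2 CPM. Both RNA and antibody counts of a mouse are in its matrix.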

Additional observations from a re-analysis of the deposited data

Results flagged for a closer look

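Some genes moved in opposite directions in the 2 mice when the Cilp2 Chad Ecrg4 cells were set against another group, and these differences between the mice were not tested. Against Prg4-high cells, Ecrg4 stood at -0.51 (young) and 1.28 (old) on the log2 scale, Npy at -0.91 and 0.55, and Spp1 at -0.65 and 1.08. Spp1 stood at -0.58 and 1.505 against the remaining cells. Col11a2 stood at 1.04 and -2.64 against the remaining cells, and Cdkn1a at 0.71 and -0.66 against the Col2a1 and Col9a1 cells. Each is the value of 1 mouse per age.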

How the results depend on the processing

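With at least 4 of the 6 genes the share was 0.656% young and 0.446% old, with at least 2 genes 11.2% and 7.51%, with no cells left out for Col2a1, Col9a1 or Prg4 8.62% and 4.62%, and after thinning to 2000 UMIs 3.63% and 1.29%. The young share was the higher one under each of these.

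Genes called against Col2a1 and Col9a1 cells numbered 329 with at least 4 genes, 432 at 2000 UMIs, 468 without the Bglap-rich comparator cells (chosen after seeing the data) and 2001 with no filter on low counts, against 1296. Against Prg4-high cells they numbered 219 with at least 4 genes, 1640 with no filter and 1781 in a fit of the 2 classes alone, against 913. Against Tnmd and Kera cells they numbered 21 without doublets, 87 at 2000 UMIs, 20 for cells without Cytl1, Npy or Meltf, 199 with DESeq2, 364 with no filter and 87 for the 2 classes alone, against 12, so that count is not stable. Against the remaining cells they numbered 848 with at least 4 genes and 1616 at 2000 UMIs, against 3299. The median over all genes against Tnmd and Kera cells was 0.22 with TMM, 0.13 with RLE and 0.08 with DESeq2. Without the replicate block, the pairing by animal being ignored, the counts were 1188, 646, 9 and 2706, and 10 of 60, 12 of 61, 2 of 14 and 5 of 53 named genes lost their call. With at least 4 of the 6 genes 25 of 59, 24 of 57, 9 of 14 and 14 of 53 did. At the 90th percentile as threshold, 6.18% of young (4.15 to 8.81) and 3.01% of old cells (0.825 to 7.52) were CD24-positive. The share of all kept cells was 10.0% in each mouse. Per 10000 RNA UMIs the antibody median was 0.960 and 0.904 of that of all kept cells, against 1.07 and 1.11. At 2000 UMIs, 63 genes were 2-fold higher and 94 lower in old cells, and 36 were higher with the top 50 genes left out of the totals.

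Directions turned for few named genes. Without the Bglap-rich cells these were Col1a1 (1.57), Col1a2 (1.36), Bglap (2.497), Bglap2 (3.27), Ifitm5 (1.13), Col22a1 (0.21), Fmod (-0.00044) and Ecm2 (-0.076) against Col2a1 and Col9a1 cells. For Bglap, and for osteoblast genes that vary along with it, this follows from how the cells were left out. Without Cytl1, Npy or Meltf cells these were Ihh (-2.08 against Prg4-high and -1.54 against remaining cells) and Hapln1 (-0.41). Those cells were left out of the selected side only, by genes that vary with other cartilage genes. With at least 4 genes Tnc stood at -0.11 against Col2a1 and Col9a1 cells. Sox9 against Prg4-high cells stood at -0.094 at 2000 UMIs, -0.51 without Cytl1, Npy or Meltf cells, -0.012 without the deep old cell and at -0.13 and 0.377 in the young and old mouse alone. The cause was not tested. Fits in which a class fell to 0 UMIs gave no value. Leaving out either mouse left no residual degrees of freedom and therefore no test.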
